A study of Homo sapiens with 26 samples.

Results

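Histone marks were followed around 9 genes of the Notch pathway, namely the ligand genes JAG1, JAG2, DLL1 and DLL4, the receptor genes NOTCH1, NOTCH2 and NOTCH3, and the target genes HES1 and HES4. Members were all regions with a peak of H3K27ac (acetylation of histone H3 lysine 27, found at active promoters and enhancers) or of H3K4me1 (monomethylation of lysine 4, found at primed and active enhancers) that overlapped one of these genes or the 100 kb to each side of it on GRCh37. A region is the union of overlapping peaks of 1 mark over all lists. There were 285 such regions among 87608 for H3K27ac and 192 among 110276 for H3K4me1. Regions that overlapped a promoter (1000 bp upstream to 200 bp downstream of a start site) were kept apart from the distal ones.

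The cells were HCT116, a colorectal cancer line with functional p53, given Nutlin-3a, a small molecule that stops MDM2 from binding p53, for 1 h or 10 h, or the vehicle DMSO (called 0 h). H3K27ac was measured in the parental line (WT) at 0, 1 and 10 h and in an HCT116 derivative named for the cohesin subunit RAD21 at 0 and 1 h. H3K4me1 was measured in WT at the 3 times. Each of the 8 groups had 2 peak lists, which gave 10 lists for H3K27ac and 6 for H3K4me1. The study describes a degron on RAD21 that an auxin analogue triggers. It reports its H3K27ac data from this line as those of cells depleted of RAD21, and the peak names carry a knockdown tag. The labels give neither that agent nor the RAD21 level in these libraries, and the derivative is referred to as the RAD21 line.

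Notch ligands sit on the surface of one cell and bind Notch receptors on its neighbour. Binding lets ADAM proteases and then gamma-secretase cut the receptor, whose inner part enters the nucleus, joins the DNA-binding protein RBPJ and switches on repressor genes of the HES family. In the intestinal epithelium this signal keeps progenitor cells from becoming secretory cells, and JAG1, JAG2, DLL1 and DLL4 are ligands with different receptor preferences.

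The lists hold no read counts, and a peak's p-value depends on the depth of its library. Regions were therefore compared by their rank within a list. The rank score below is the normal score of a region's rank by −log10 p-value among the 18757 H3K27ac regions (60476 for H3K4me1) called in every list of the mark, so that 0 is the middle of a list and 1 unit is 1 SD. Changes in rank score are given ± SE from 1 limma fit per mark, with p-values adjusted over all regions of the fit and called at 0.05. A rise or fall is thus relative to the other regions of the same list, and a mark in more cells cannot be told apart from more of the mark per cell.

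Of the 10 H3K27ac lists, 3 stood apart: in both WT 0 h lists and in WT 1 h replicate 1 the peak names lack the word input, and peaks covered 30.7 to 31.9 Mb against 49.1 to 66.6 Mb in the other 7. The 10 h lists and the 0 h lists differ in this respect throughout. WT 1 h has a list of each kind, so a fit with the form of the lists as a term was possible, and in that fit 10 h against 0 h rests on the difference between the 2 WT 1 h lists. Both RAD21 groups are of 1 kind. Values within 1 kind of list (WT 1 h replicate 1 against both 0 h lists, or both 10 h lists against WT 1 h replicate 2) are given as within-form values beside the calls at 1 h and from 1 to 10 h in WT for the regions around the 9 genes. As a check of the cells, H3K27ac lay at the promoters of 6 of 6 epithelial markers in 10 of 10 lists and at those of PTPRC, CD3E, COL1A1, GFAP and ALB in 0 of 10. PECAM1, the endothelial marker planned beside these, was not found in the annotation and was not checked. At the promoter of MDM2, the p53 target whose product inhibits p53, the rank score rose by 0.65 ± 0.16 at 1 h in WT (adjusted p = 0.00984) and by 0.62 ± 0.16 in the RAD21 line (adjusted p = 0.0131). At that of CDKN1A, the other p53 target looked at, the changes of 0.41 ± 0.16 (adjusted p = 0.0722) and 0.26 ± 0.16 (adjusted p = 0.258) were not called. At 10 h against 0 h in WT neither was called, with 0.05 at MDM2 (adjusted p = 0.858) and 0.485 at CDKN1A (adjusted p = 0.0540).

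**Figure D1:**
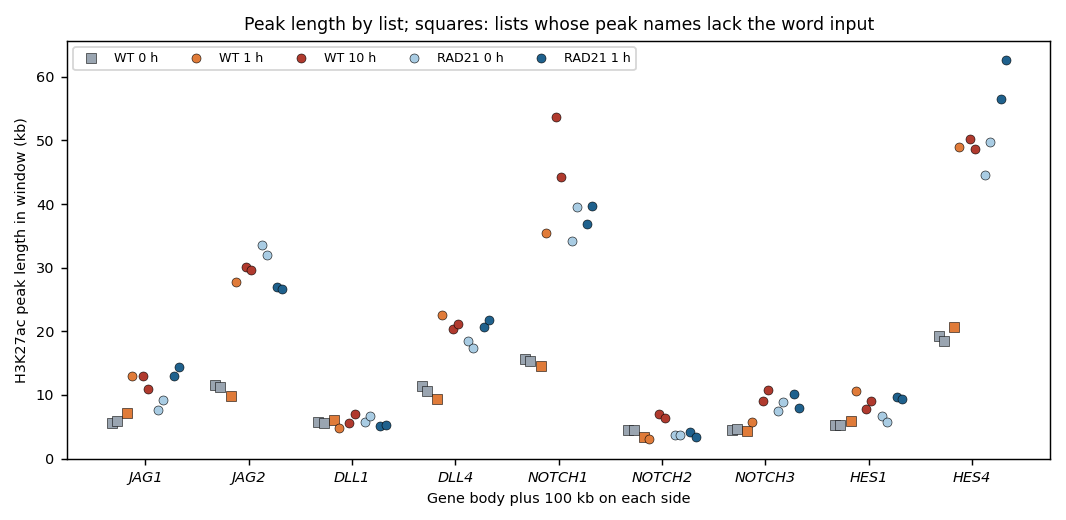
Length of H3K27ac peaks (kb, y axis) in the window of each gene (x axis), 1 point per list, coloured by group, with squares for the 3 lists whose peak names lack the word input. In the JAG2 window those 3 lists hold 9.79 to 11.6 kb and the other 7 hold 26.6 to 33.6 kb, whereas in the DLL1 window all lists lie between 4.84 and 6.98 kb.

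The sequence just upstream of the start site is shown for JAG2 and NOTCH2, whose promoters had the 2 largest rank changes in WT at 1 h among the 8 that could be tested, for HES1, which rose in both lines, and for NOTCH1, which rose in the RAD21 line. Each run is the 250 bases before the start, 5′ to 3′ on the strand of the gene, from GRCh37. JAG2 lies on the minus strand at chr14:105635162-105635411, NOTCH2 on the minus strand at chr1:120612277-120612526, NOTCH1 on the minus strand at chr9:139440501-139440750 and HES1 on the plus strand at chr3:193853687-193853936. Capitals mark GTGGGAA, the core to which RBPJ binds, searched on both strands.
JAG2: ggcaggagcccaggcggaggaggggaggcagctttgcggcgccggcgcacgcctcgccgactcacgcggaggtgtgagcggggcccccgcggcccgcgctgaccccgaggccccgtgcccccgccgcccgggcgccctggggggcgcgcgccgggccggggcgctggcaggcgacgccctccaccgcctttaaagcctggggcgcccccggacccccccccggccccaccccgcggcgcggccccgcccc
NOTCH2: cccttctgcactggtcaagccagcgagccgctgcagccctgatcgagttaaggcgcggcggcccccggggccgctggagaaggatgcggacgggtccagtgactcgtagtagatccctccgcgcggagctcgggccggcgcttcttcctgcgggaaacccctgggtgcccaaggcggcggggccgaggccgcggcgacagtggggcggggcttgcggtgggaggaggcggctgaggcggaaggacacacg
NOTCH1: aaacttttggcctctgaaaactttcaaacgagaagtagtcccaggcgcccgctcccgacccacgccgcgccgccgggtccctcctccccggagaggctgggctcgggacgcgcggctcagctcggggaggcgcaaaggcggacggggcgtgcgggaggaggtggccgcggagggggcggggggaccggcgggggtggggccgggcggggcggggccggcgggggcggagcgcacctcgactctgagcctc
HES1: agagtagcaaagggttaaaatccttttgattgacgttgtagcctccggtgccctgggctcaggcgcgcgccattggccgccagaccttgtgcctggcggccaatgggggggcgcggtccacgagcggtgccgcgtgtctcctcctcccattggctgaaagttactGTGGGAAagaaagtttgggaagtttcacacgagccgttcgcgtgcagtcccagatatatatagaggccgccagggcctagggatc
The JAG2 run holds 38 CpG dinucleotides and 84.8% G and C, against a median of 16 CpG over protein-coding genes, and the HES1 run holds 18 and 59.2%. HES1 was the one gene of the 9 with GTGGGAA in these 250 bases, as have 5.34% of 20163 protein-coding genes. Neither the p53 element defined below nor the AP-1 motif TGANTCA was found in any of the 9 runs; they occur in 0.298% and 5.04% of genes.

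H3K27ac was called over the promoters of JAG1, JAG2, DLL1, NOTCH1, NOTCH2, NOTCH3, HES1 and HES4 in all 10 lists, and H3K4me1 was called at or beside the promoters of all 9 genes in all 6 lists. DLL4, the ligand best known from blood vessels, was the exception for acetylation. Its promoter carried 2 short H3K27ac regions, chr15:41220177-41221186 in 4 of 10 lists and chr15:41221256-41222262 in 4 of 10, at percentiles of 9.24 to 32.6 of all peaks of their lists. H3K4me1 covered the DLL4 start in 6 of 6 lists (chr15:41218258-41224442) at percentiles of 83.1 to 95.7. The second region was called in both RAD21 1 h lists and in neither RAD21 0 h list. NOTCH1 had a further H3K27ac region over a start site inside the gene, with its summit window at chr9:139406670-139406969. It was not called in every list and could not be tested, so the NOTCH1 promoter below is the one at the main start.

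At 1 h in WT, the rank of H3K27ac rose at the promoters of JAG2, NOTCH2 and HES1 and fell at that of NOTCH3, while those of JAG1, DLL1, NOTCH1 and HES4 passed no test. Over all member regions, 51 of 285 were called in every list and could be tested; 11 of these 51 rose (14.3% of all regions did) and 9 fell (14.8%), together 39.2% against 29.1% of all regions. Of the 8 promoters of the genes themselves, 4 were called (50.0%, against 32.8% of all promoter regions). The median change over the 51 was -0.043, and over all regions -0.007. When regions were ranked by the authors' fold in place of the p-value, limma called 0 of the 51 at 1 h in either line (10 and 10 had an unadjusted p under 0.05) and 0 of all 18757 regions, so the 1 h calls below hold for ranks by p-value.

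The JAG2 promoter (chr14:105627626-105635792) gave the clearest course. Its percentile among all peaks of the list was 58.8 and 56.6 at 0 h, 76.9 and 86.5 at 1 h, and 78.1 and 75.9 at 10 h in WT; in the RAD21 line it was 73.9 and 74.3 at 0 h and 81.4 and 83.8 at 1 h. The rank scores were -0.37 and -0.43 at 0 h, 0.38 and 0.64 at 1 h, -0.03 and -0.08 at 10 h, and in the RAD21 line 0.04 and -0.04 followed by 0.37 and 0.52. The 2 lists of each group lay together and no WT group overlapped another. The change was 0.91 ± 0.12 from 0 to 1 h (adjusted p = 3.40e-04; within-form 0.78), and the score fell by 0.56 ± 0.12 from 1 to 10 h (adjusted p = 0.00432; within-form -0.695). At 10 h it stood 0.34 ± 0.12 above 0 h, which missed the threshold (adjusted p = 0.0683). Ranked by fold, the 1 h change was 1.14 with an adjusted p of 0.0941, and the change from 1 to 10 h was 0.03.

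The NOTCH2 promoter (chr1:120610769-120613001) followed a like course from a higher level. Its rank scores were 0.97 and 0.92 at 0 h, 1.63 and 1.59 at 1 h and 0.96 and 0.86 at 10 h in WT. Both 1 h lists lay above all other 8 lists, of which the RAD21 1 h lists, at 1.22 and 1.22, came next. The change was 0.66 ± 0.11 at 1 h (adjusted p = 0.00108; within-form 0.68), and the score fell by 0.70 ± 0.11 from 1 to 10 h (adjusted p = 5.80e-04; within-form -0.68). Ranked by fold, the 1 h change at NOTCH2 was 0.05 (adjusted p = 0.893). The genome holds near-identical copies of the first part of NOTCH2, the NOTCH2NL genes, and how their reads were shared out is not given in the sources used here.

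HES1 encodes the repressor through which Notch acts in the crypt. Its promoter (chr3:193851400-193856138) had rank scores of -0.46 and -0.56 at 0 h, -0.01 and -0.04 at 1 h and -0.20 and -0.01 at 10 h in WT, so that the 1 h and 10 h lists overlapped and both lay above 0 h. The 1 h change was 0.49 ± 0.13 (adjusted p = 0.0144; within-form 0.50). The 10 h change of 0.41 ± 0.13 was at the threshold (adjusted p = 0.0459). It was called in 2 of the 10 fits that left out 1 list and not with the form of the lists as a term (adjusted p = 0.286). NOTCH3 (chr19:15310514-15312008) went the other way at 1 h, from -0.76 and -0.70 to -1.14 and -1.17, and stood at -0.69 and -0.71 at 10 h. It fell by 0.42 ± 0.14 at 1 h (adjusted p = 0.0442; within-form -0.41), a call kept in 1 of those 10 fits, and rose by 0.45 ± 0.14 from 1 to 10 h (adjusted p = 0.0293; within-form 0.47), kept in 4.

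The other 4 promoters gave no call in WT at any time. JAG1 (chr20:10651595-10656073) ranked high throughout, with percentiles of 78.6 to 93.1. DLL1 (chr6:170599053-170600608) ranked near the middle, with percentiles of 42.6 to 64.9. NOTCH1 (chr9:139437852-139443203) had rank scores of 0.45 to 0.74 in the 6 WT lists. HES4 lies in a broad acetylated region (chr1:931533-943114) that was among the strongest of every list, at percentiles of 97.3 to 99.9. The WT 1 h lists lay apart there, with rank scores of 1.73 in replicate 1 and 3.09 in replicate 2.

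**Figure D2:**
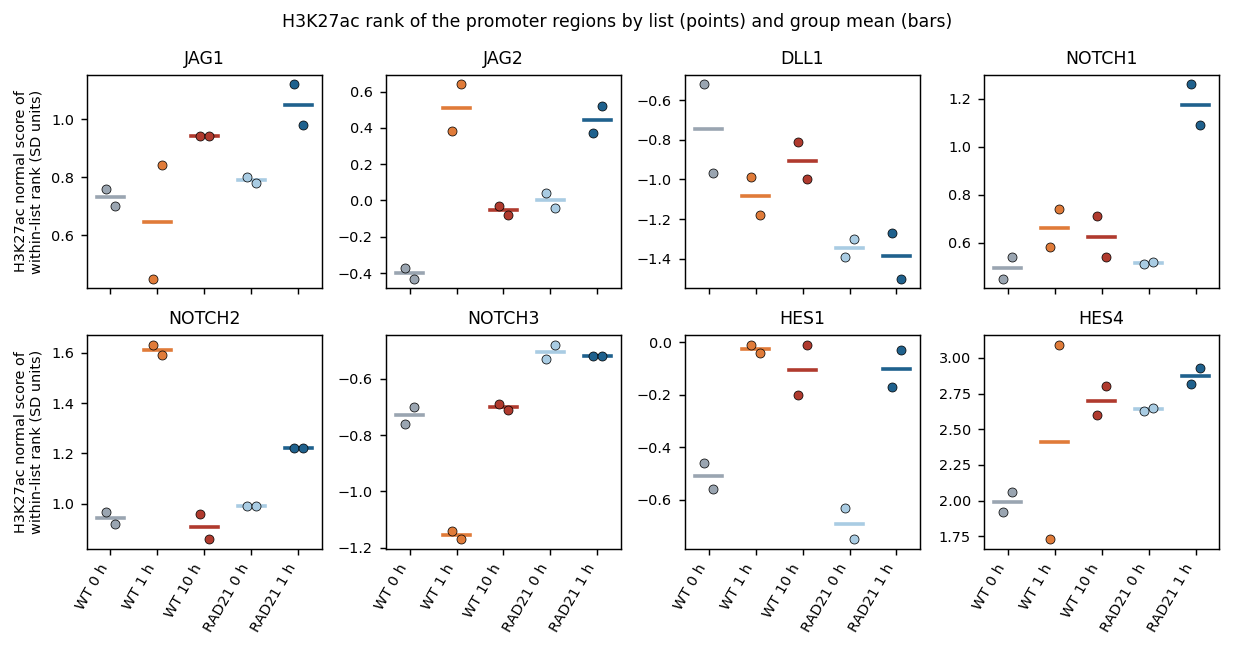
H3K27ac rank score (normal score of the within-list rank, in SD units, y axis) at 8 Notch gene promoters in each group (x axis), with 1 point per list and a bar for the mean of 2 lists; each panel has its own y range. At WT 1 h the JAG2 points (0.38 and 0.64) lie above the other WT points, the NOTCH2 points (1.63 and 1.59) are highest and the NOTCH3 points lowest of all groups, and the NOTCH1 points are highest at RAD21 1 h, at 1.26 and 1.09.

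The 1 h response was also read in the RAD21 line, named for a subunit of cohesin, the ring complex that extrudes chromatin loops. The line, the treatment with the auxin analogue that the study describes and the form of the 0 h lists go together in the comparison with WT. Their parts in a difference between the lines cannot be told apart. In the RAD21 line 10 of the 51 regions rose (14.4% of all regions) and 8 fell (13.4%), together 35.3% against 27.7%. Of the genes' 8 own promoters JAG2, HES1 and NOTCH1 rose and 0 fell (37.5% called, against 27.7% of all regions, promoter and distal together). The share over promoter regions alone was not computed for this line, so 37.5% has no like background. JAG2 rose by 0.44 ± 0.12 (adjusted p = 0.0178) and HES1 by 0.60 ± 0.13 (adjusted p = 0.00463). NOTCH1 went from 0.51 and 0.52 at 0 h to 1.26 and 1.09 at 1 h, a rise of 0.66 ± 0.12 (adjusted p = 0.00143). NOTCH2 changed by 0.23 ± 0.11 (adjusted p = 0.140).

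Whether the lines differed was tested as an interaction, in which the WT change at 1 h is subtracted from that of the RAD21 line. It was positive and called at 8 of the 51 regions (11.7% of all regions) and negative and called at 4 (11.0%), together 23.5% against 22.7%, a share close to that of all regions. Among the genes' own promoters the NOTCH1 interaction, 0.50 ± 0.17, was at the threshold (adjusted p = 0.0486) and was called in 2 of the 10 fits that left out 1 list. At JAG2 the interaction was -0.47 ± 0.17 (adjusted p = 0.0718) and at NOTCH2 -0.44 ± 0.16 (adjusted p = 0.0600), so that a smaller rise in the RAD21 line was not shown for either. The 0 h lists of the lines also differ in form. With the form as a term, 16 of the 51 interactions were called, 11 positive and 5 negative, and that at NOTCH1 was 0.58 (adjusted p = 0.00648).

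**Figure D3:**
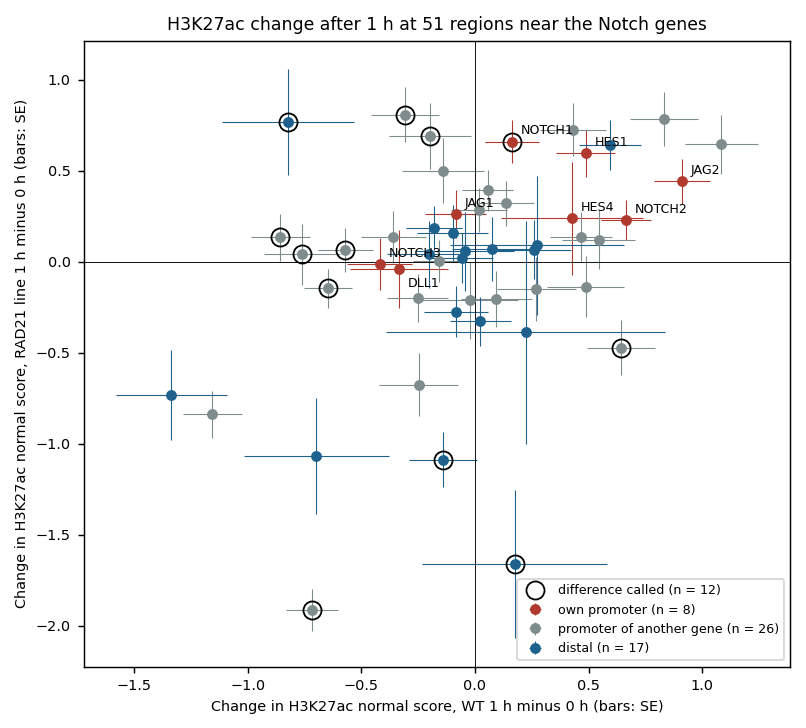
Change in H3K27ac rank score after 1 h in WT (x axis) and in the RAD21 line (y axis) at 51 regions, with SE bars; colour gives 8 own promoters, 26 promoters of other genes and 17 distal regions, and rings mark the 12 called differences. JAG2 and HES1 lie in the upper right, at 0.91 and 0.44 and at 0.49 and 0.60, and the lowest point, at -0.72 and -1.91, is the CHAC1 promoter near DLL4.

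Distal regions called in every list numbered 17, of which 3 were called at 1 h in WT (17.6%, against 22.5% of all distal regions), 2 at 10 h against 0 h (11.8% against 21.0%), 4 from 1 to 10 h (23.5% against 23.9%), 5 at 1 h in the RAD21 line (29.4% against 24.4%) and 3 in the interaction (17.6% against 17.1%). The summit of a region was that of its peak with the highest −log10 p over the lists. For 5 of the distal regions with calls, the 300 bases around the summit are shown, since these windows carry the distal changes described next. All are plus-strand sequence of GRCh37 with no capitals, because none holds the p53, RBPJ or AP-1 motif. The JAG1 window is chr20:10579244-10579543, the JAG2 window chr14:105697501-105697800, the DLL1 window chr6:170604901-170605200, the DLL4 window chr15:41253106-41253405 and the NOTCH2 window chr1:120604419-120604718.
JAG1 distal: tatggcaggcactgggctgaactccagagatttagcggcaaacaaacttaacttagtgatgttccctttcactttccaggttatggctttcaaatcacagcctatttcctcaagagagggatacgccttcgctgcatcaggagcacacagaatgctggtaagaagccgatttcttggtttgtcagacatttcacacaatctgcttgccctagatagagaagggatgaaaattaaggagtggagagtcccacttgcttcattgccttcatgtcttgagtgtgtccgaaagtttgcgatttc
JAG2 distal: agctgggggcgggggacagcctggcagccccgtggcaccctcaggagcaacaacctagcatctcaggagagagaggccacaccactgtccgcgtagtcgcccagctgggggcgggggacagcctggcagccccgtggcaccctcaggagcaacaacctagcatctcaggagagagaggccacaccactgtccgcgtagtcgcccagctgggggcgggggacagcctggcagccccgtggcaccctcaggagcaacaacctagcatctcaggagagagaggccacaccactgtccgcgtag
DLL1 intron: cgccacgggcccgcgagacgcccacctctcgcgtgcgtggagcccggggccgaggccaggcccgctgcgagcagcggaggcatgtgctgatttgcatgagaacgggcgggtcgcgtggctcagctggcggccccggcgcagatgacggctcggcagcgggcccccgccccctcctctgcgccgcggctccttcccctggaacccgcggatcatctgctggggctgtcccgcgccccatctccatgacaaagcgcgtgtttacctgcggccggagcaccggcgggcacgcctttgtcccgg
DLL4 distal: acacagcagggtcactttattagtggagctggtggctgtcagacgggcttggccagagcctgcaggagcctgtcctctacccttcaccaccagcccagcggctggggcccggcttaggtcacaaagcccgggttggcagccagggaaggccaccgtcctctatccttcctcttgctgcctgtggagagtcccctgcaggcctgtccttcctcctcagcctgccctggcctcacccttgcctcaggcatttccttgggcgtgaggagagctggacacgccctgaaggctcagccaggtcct
NOTCH2 intron: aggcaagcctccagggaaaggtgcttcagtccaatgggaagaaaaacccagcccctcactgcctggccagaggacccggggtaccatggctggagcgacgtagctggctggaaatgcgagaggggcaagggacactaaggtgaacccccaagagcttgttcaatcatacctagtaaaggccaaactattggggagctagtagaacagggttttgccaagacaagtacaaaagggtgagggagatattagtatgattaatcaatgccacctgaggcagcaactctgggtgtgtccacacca
The JAG2 window is an exact tandem repeat: shifted by 102 bases it matched itself at 100% of 198 bases, against 31.3% to 37.8% at the best shift of the other 4 windows. Reads from such a repeat map to more than 1 copy.

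Near the ligand genes, the JAG1 distal region (chr20:10577893-10580723), whose summit lies in a coding exon of SLX4IP 75253 bp downstream of the JAG1 start, rose in both lines. It scored -0.36 and -0.66 at 0 h, 0.04 and 0.13 at 1 h and 0.00 and 0.07 at 10 h in WT, and -0.48 and -0.29 then 0.34 and 0.19 in the RAD21 line. In each line the treated lists lay above the 0 h lists. The rise was 0.59 ± 0.14 at 1 h (adjusted p = 0.00663; within-form 0.55), 0.55 ± 0.14 at 10 h (adjusted p = 0.0171) and 0.64 ± 0.14 in the RAD21 line (adjusted p = 0.00394), with an interaction of 0.05 ± 0.19 (adjusted p = 0.878). The 10 h rise was called in 7 of the 10 fits that left out 1 list and not with the form of the lists as a term, where it was 0.45 (adjusted p = 0.254).

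The JAG2 distal region (chr14:105695991-105702928), in an intron of BRF1 at -62490 bp from the JAG2 start, fell in the RAD21 line, and the test of the difference between the lines was called. In rank score it stood at -0.39 and -0.55 at 0 h and -0.63 and -0.60 at 1 h in WT, and at -0.13 and -0.09 then -1.32 and -1.07 in the RAD21 line. It fell by 1.09 ± 0.15 in the RAD21 line (adjusted p = 2.23e-04), with an interaction of -0.95 ± 0.21 (adjusted p = 0.00657), both called in 10 of 10 fits that left out 1 list. The neighbouring BRF1 region (chr14:105703315-105708440) also fell in the RAD21 line, by 1.07 ± 0.32 (adjusted p = 0.0249), with an interaction of -0.37 ± 0.45 (adjusted p = 0.593). At 0 h in WT, 0 of the 3 distal H3K27ac regions called in both lists in the JAG2 window overlapped H3K4me1. Over all such distal regions 96.1% did.

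The DLL1 intronic region (chr6:170604621-170605596) lies at -4885 bp from the main start, within an intron of a longer DLL1 transcript. The RAD21 line gave -0.82 and -0.87 at 0 h and -2.72 and -2.29 at 1 h in rank score, against -1.72 and -1.73 then -1.73 and -1.37 in WT, where the 10 h lists gave -3.29 and -2.50. It fell by 1.66 ± 0.41 in the RAD21 line (adjusted p = 0.00883) and by 1.35 ± 0.41 from 1 to 10 h in WT (adjusted p = 0.0228; within-form -1.52). The interaction of -1.84 ± 0.57 (adjusted p = 0.0357) was called in 3 of the 10 fits that left out 1 list and not with the form of the lists as a term, where it was -1.66 (adjusted p = 0.0627).

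At DLL4, an intergenic region 31718 bp downstream of the start (chr15:41252767-41254046) fell and came back. The WT scores were -0.78 and -0.88 at 0 h, -2.13 and -2.20 at 1 h and -1.22 and -1.04 at 10 h in WT. It fell by 1.33 ± 0.25 at 1 h (adjusted p = 0.00188; within-form -1.30) and rose by 1.03 ± 0.25 from 1 to 10 h (adjusted p = 0.00677; within-form 1.07). In the RAD21 line it fell by 0.73 ± 0.25 (adjusted p = 0.0403), a call kept in 2 of the 10 fits that left out 1 list. A region at -94124 bp (chr15:41126807-41128428) fell by 0.83 ± 0.18 at 10 h against 0 h (adjusted p = 0.00972) and by 0.62 ± 0.18 against 1 h (adjusted p = 0.0196; within-form -0.55). With the form of the lists as a term the former was -0.69 (adjusted p = 0.232).

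Among the receptor genes, the NOTCH2 intronic region (chr1:120604068-120605340), 7707 bp downstream of the start, moved opposite to the NOTCH2 promoter in WT. WT lists gave -0.43 and -0.88 at 0 h, -1.21 and -1.75 at 1 h and -0.35 and -0.12 at 10 h. It fell by 0.82 ± 0.29 at 1 h (adjusted p = 0.0486; within-form -0.55), a call kept in 3 of the 10 fits that left out 1 list, and rose by 1.24 ± 0.29 from 1 to 10 h (adjusted p = 0.00629; within-form 1.52). In the RAD21 line its 0 h lists disagreed, at -1.15 and -2.08, and the 1 h lists stood at -0.71 and -0.99. The interaction was 1.59 ± 0.41 (adjusted p = 0.0146). NOTCH1 and NOTCH3 had distal regions in every list but no call among them. Of these the highest by mean rank were chr9:139461578-139463730, at -21948 bp from the NOTCH1 start, with rank scores of -0.30 to 0.04, and chr19:15305832-15307364 in a NOTCH3 intron, with scores of -1.53 to -0.39.

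Near the target genes, the strongest distal region of HES1 (chr3:193857970-193860768, 5725 bp downstream of the start) ranked at percentiles of 79.8 to 93.5 in the 10 lists and gave no call. That of HES4 (chr1:1013474-1016730, at -79249 bp) ranked at 66.3 to 85.3, also with no call.

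Regions that appeared or disappeared between times were counted apart, since a region absent from a list has no rank. A region was gained when both later lists and neither 0 h list had a peak there. At 1 h in WT, 2 member regions were gained (0.702% against 1.51% of all regions) and 3 lost (1.05% against 1.32%). Both gained ones were distal (1.60% of all distal regions were gained), chr1:975201-976259 in AGRN near HES4 and chr9:139492468-139493298 near NOTCH1. The 2 distal lost ones (1.46% of all distal regions) were chr9:139482576-139483317 near NOTCH1 and chr1:120687372-120687921 near NOTCH2. In the RAD21 line 10 regions were gained (3.51% against 4.61%) and 7 lost (2.46% against 2.87%).

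At 10 h in WT, 38 regions were gained (13.3% against 11.4% of all regions), and 6 were lost (2.11% against 1.90%). Of the 238 distal ones 36 were gained and 5 lost, where 13.2% and 1.98% of all distal regions were. Gained regions were 15 of 84 around NOTCH1 (17.9%), 10 of 49 around HES4 (20.4%), 4 of 22 around JAG1 (18.2%), 3 of 20 around NOTCH3 (15.0%), 2 of 14 around DLL1 (14.3%), 3 of 36 around JAG2 (8.33%), 1 of 38 around DLL4 (2.63%), and 0 of 14 and 0 of 8 around NOTCH2 and HES1. Since the 0 h lists are of the shorter form, the 38 were also looked up in WT 1 h replicate 2, whose form is that of the 10 h lists: 26 (68.4%) were absent from it too, as were 71.1% of all regions gained at 10 h. In no list other than the 2 at 10 h were 12 of the 38 found (31.6%, against 38.7% of all gained regions). Of the 38, 12 lay in H3K4me1 already called in both 0 h lists (31.6%, against 41.8%).

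The 5 gained distal regions with the highest mean rank were chr1:1012318-1013383 and chr1:975201-976259 near HES4, chr20:10713694-10714519 and chr20:10517258-10519342 near JAG1, and chr9:139517261-139518351 near NOTCH1. The first was present in 7 of 10 lists and missing from just the 3 lists of the shorter form. The JAG1 region at chr20:10713694-10714519 was present in the WT 10 h lists at the authors' folds of 4.30 and 5.46 and in 0 of the other 8. JAG1 had 3 gained regions that no other list held, chr20:10713694-10714519, chr20:10645667-10646769 and chr20:10641372-10641882. DLL1, DLL4, NOTCH1 and NOTCH3 also had such regions, NOTCH1 more of them than JAG1. Over the members their share of the gained regions (31.6%) was below that of all regions (38.7%). The last 2 of the JAG1 regions, in JAG1 introns, are named after their values were seen. Their folds at 10 h were 4.19 and 3.51 and, for the last, 3.58 and 3.47.
The distal regions lost at 10 h were chr6:170707664-170709368 near DLL1, chr9:139538643-139539638 and chr9:139482576-139483317 near NOTCH1, and chr1:120623369-120624462 and chr1:120687372-120687921 near NOTCH2.

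Pooled over the 9 genes, distal H3K27ac regions called in both lists of a time numbered 27 at 0 h, 26 at 1 h and 66 at 10 h. Of these 22, 24 and 34 overlapped H3K4me1 called in both lists of the same time, which is 81.5%, 92.3% and 51.5%. Over all distal regions of the lists the numbers were 11678, 11263 and 20081, with H3K4me1 at 96.1%, 97.2% and 72.2%. Both 0 h lists and 1 of the 1 h lists are of the shorter form. Distal H3K4me1 regions numbered 84, 84 and 82, of which 66, 65 and 60 carried no H3K27ac. The share without H3K27ac over all distal H3K4me1 regions was not computed, so these counts cannot be called particular to the 9 genes. NOTCH1 accounted for 19 of the 66 regions at 10 h, of which 6 had H3K4me1, and JAG1 for 7, of which 7 had it.

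DNA matching the p53 response element was searched in all member regions, as pairs of 10-base p53 repeats (the known decamer) with a spacer of 0 to 13 bases and at most 1 mismatch, the core C and G of each decamer being required. A match is a description of the letters and not of binding. Both matches with 0 mismatches lay near JAG1. How often such matches fall in or beside regions gained at 10 h over all regions was not computed. A link between these matches and the gains was not tested. They are printed because they fall in or beside the JAG1 regions gained at 10 h, with the decamers in capitals and any spacer in lower case, on the plus strand of GRCh37 at chr20:10714024-10714043 and chr20:10640903-10640923.
JAG1 upstream element: AGGCTAGCCCGGGCATGTTC
JAG1 intronic element: AGACAAGCCTtGAACAAGCTC
The first lay 59.4 kb upstream of the start, 147 bp from the summit of the 10 h region chr20:10713694-10714519 and inside H3K4me1 called in 6 of 6 lists (chr20:10711618-10714259). The second lay 13.7 kb downstream of the start in an H3K4me1 region called in 5 of 6 lists (chr20:10640408-10642224), which also spans the 10 h H3K27ac region chr20:10641372-10641882. Matches with 1 mismatch lay in regions near JAG2, DLL4, NOTCH2 and HES1. Among them was an H3K4me1 region near NOTCH2, chr1:120596540-120597155, that was also gained at 10 h. Over all member regions the matches were sparse, at 11.2 per Mb of H3K27ac region against 27.1 for all regions, and 11.2 against 21.2 for H3K4me1. None of the 238 distal or 47 promoter summit windows of 300 bases held a match (1.21% and 0.488% of all such windows did). GTGGGAA was found in 8.40% of the distal windows (6.16% of all) and TGANTCA in 6.72% (11.8% of all).

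**Figure D4:**
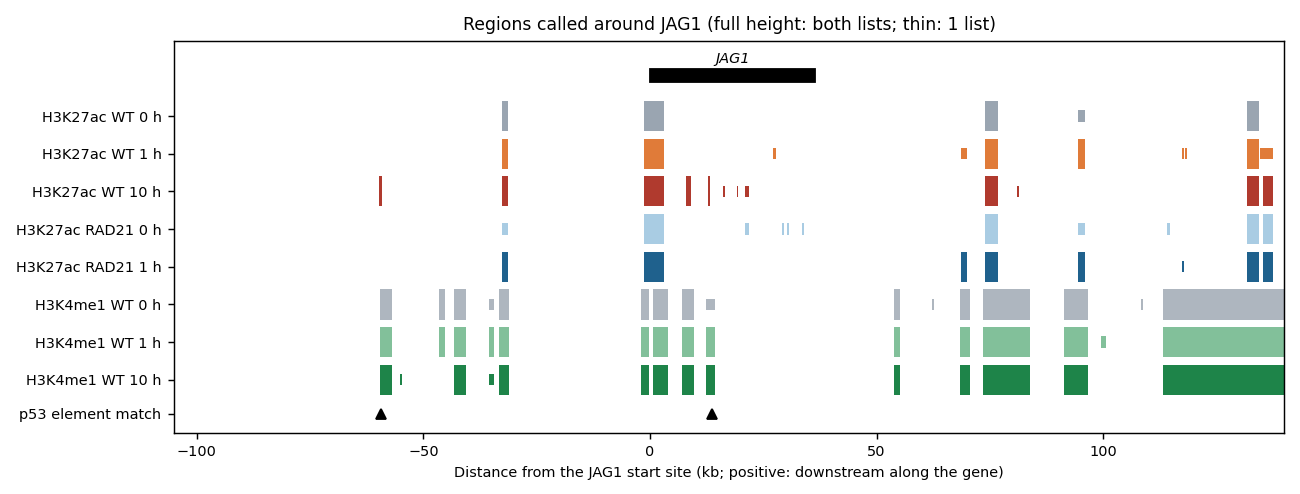
Merged regions called around JAG1 by distance from its start site (kb, x axis), 1 row per mark and group; full height marks a region called in both lists of the group and thin bars 1 of 2, and filled triangles mark p53 element matches with 0 mismatches. At 10 h regions appear at the triangle 59.4 kb upstream and beside the triangle 13.7 kb downstream, where the other H3K27ac rows are empty.

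H3K4me1 changed little in rank. Of 114 testable member regions 0 rose and 1 fell at 1 h (0.291% and 0.304% of all regions), and 1 rose and 0 fell at 10 h (0.615% and 0.0231%). The region that rose at 10 h lies between genes at -51962 bp from the NOTCH1 start (chr9:139491194-139493731). Its rank scores were -0.76 and -0.74 at 0 h, -1.46 and -1.30 at 1 h and 1.00 and 1.00 at 10 h, so that the groups did not overlap. The rise of 1.75 ± 0.25 (adjusted p = 0.00383) was called in 4 of the 6 fits that left out 1 list. The H3K27ac region gained there at 1 h, chr9:139492468-139493298, was in neither 10 h list. The region that fell at 1 h spans ISG15 and AGRN near HES4 (chr1:947409-962158), from 2.67 and 2.77 to 2.00 and 1.97; its change of -0.73 ± 0.15 (adjusted p = 0.0406) was called in 0 of the 6 fits that left out 1 list. Of the 9 testable promoter regions of the genes themselves 0 were called. The largest changes at 1 h were 0.88 ± 0.25 at NOTCH2 (adjusted p = 0.117) and 0.62 ± 0.17 at DLL4 (adjusted p = 0.0975). Presence changed at few sites: 2 regions were gained at 1 h (1.04% against 3.30% of all regions) and 0 lost (against 1.75%), and 8 were gained at 10 h (4.17% against 2.63%) and 3 lost (1.56% against 2.29%).

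Contacts of JAG2 over long distances were a subject of the study, so regions 100 to 250 kb beyond the 3′ end of the gene were also examined. They are not among the 285. The study's text places its p53-bound JAG2 enhancers at a distance within this range but names no side, and the 5′ side beyond 100 kb was not examined. A small region 185418 bp downstream of the start (chr14:105449370-105449867, named after its values were seen) was called in 1 of 10 H3K27ac lists, RAD21 1 h replicate 1, at percentile 5.08. An H3K4me1 region over AHNAK2 and CLBA1 that covers it (chr14:105432465-105453942) was called in 6 of 6 lists. The study's enhancers required H3K27ac at 1 or 10 h in WT peaks called over pooled replicates, which were not used here. Whether the small region is one of them was not tested. The AHNAK2 promoter region (chr14:105435987-105445259) rose in WT and fell in the RAD21 line. In WT both 0 h lists scored 0.08 and the 1 h lists 0.72 and 1.59, while the RAD21 line went from 1.93 and 1.86 to 1.18 and 0.93. The changes were 1.08 ± 0.21 (adjusted p = 0.00236; within-form 0.64) and -0.84 ± 0.21 (adjusted p = 0.00912), with an interaction of -1.92 ± 0.29 (adjusted p = 6.46e-04). This region also holds a p53 element match with 1 mismatch, 199 kb from the JAG2 start. At 10 h against 0 h it rose by 0.83 ± 0.21 (adjusted p = 0.0166), a value that turned to -0.04 with the form of the lists as a term.

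Next to it, the CLBA1 promoter region (chr14:105450973-105453580) fell by 1.00 ± 0.15 in the RAD21 line (adjusted p = 4.49e-04), with an interaction of -1.28 ± 0.22 (adjusted p = 0.00125). The CDCA4 promoter region (chr14:105477220-105489250) rose at 1 h in WT by 0.71 ± 0.19 (adjusted p = 0.0141; within-form 0.42) and in the RAD21 line by 0.67 ± 0.19 (adjusted p = 0.0184), and fell by 1.10 ± 0.19 from 1 to 10 h (adjusted p = 9.99e-04; within-form -1.39), as the JAG2 promoter did. The distal region called in every list, in an intron of PLD4 (chr14:105399125-105400554), fell by 0.69 ± 0.12 from 1 to 10 h (adjusted p = 0.00138; within-form -0.63) and by 0.50 ± 0.12 from 0 to 10 h (adjusted p = 0.0160; 0.344 with the form of the lists as a term). The strongest region gained at 10 h, chr14:105489599-105492095, was missing from just the 3 lists of the shorter form.

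**Figure D5:**
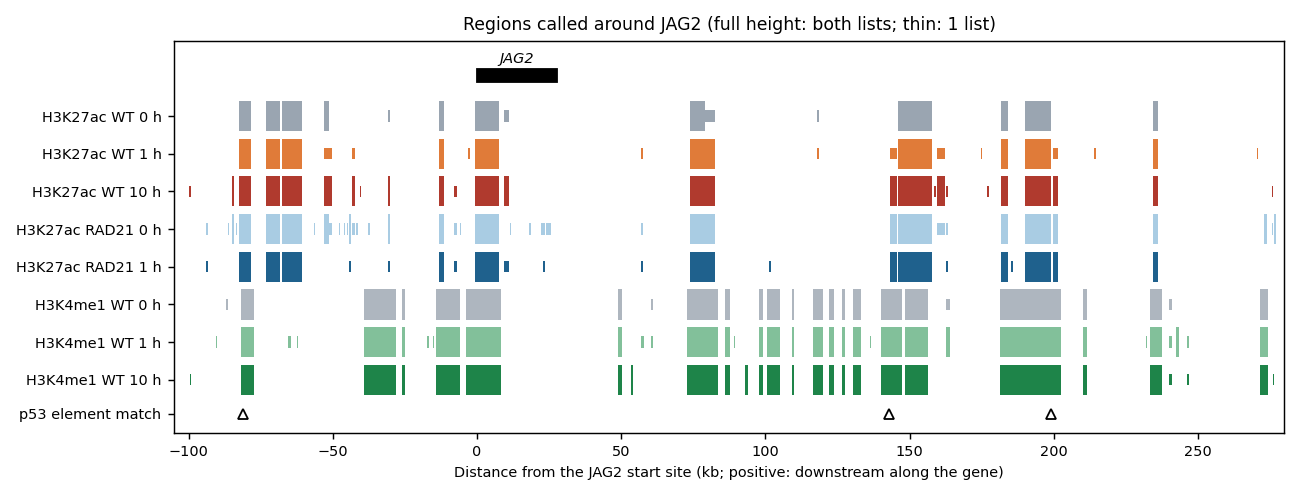
Merged regions called around JAG2 and up to 250 kb beyond its 3′ end by distance from its start site (kb, x axis), 1 row per mark and group; full height marks a region called in both lists of the group and thin bars 1 of 2, and open triangles mark p53 element matches with 1 mismatch, at 81.2 kb upstream and at 143 and 199 kb downstream. H3K27ac is found in every group at the promoters of JAG2, CDCA4, CLBA1 and AHNAK2.

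Against 0 h, 10 h in WT gave 3 member regions that rose (9.70% of all regions) and 4 that fell (8.56%), together 13.7% against 18.3%. With the form of the lists as a term, 2 of these 7 were called, CHAC1 at -0.80 (adjusted p = 0.00679) and LINC02028 at -1.10 (adjusted p = 0.0412). From 1 to 10 h, 11 rose (15.8%) and 10 fell (16.5%), together 41.2% against 32.4%. Promoters of other genes made up 26 of the 51 testable regions and 13 of the 20 calls at 1 h in WT; 13 of 26 is 50%, where 32.8% of all promoter regions were called. The FAM120B promoter region (chr6:170614731-170617286) also spans the 5′ end of the DLL1 gene model. It fell from 1.50 and 1.37 to 0.29 and 0.27 at 1 h in WT (-1.16 ± 0.13, adjusted p = 1.35e-04; within-form -1.15), stood at 1.24 and 1.34 at 10 h, and fell by 0.84 ± 0.13 in the RAD21 line (adjusted p = 4.92e-04). CHAC1, a stress-induced gene whose product degrades glutathione and which lies next to DLL4 (chr15:41244239-41246727), fell by 0.72 ± 0.11 at 1 h (adjusted p = 8.90e-04; within-form -0.63) and by 0.97 ± 0.11 at 10 h (adjusted p = 3.41e-04) in WT. In the RAD21 line it went from 1.82 and 1.80 to -0.18 and -0.02, a fall of 1.91 ± 0.11 (adjusted p = 4.85e-06), with an interaction of -1.19 ± 0.16 (adjusted p = 3.00e-04).

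Also near DLL4, VPS18, which encodes a subunit of vesicle tethering complexes, fell by 0.86 ± 0.13 at 1 h in WT (adjusted p = 7.04e-04; within-form -0.92) and rose by 1.02 ± 0.13 from 1 to 10 h (adjusted p = 1.63e-04; within-form 0.95), with an interaction of 0.99 ± 0.19 (adjusted p = 0.00235). The promoter of ENSG00000251161 fell by 0.65 ± 0.11 at 1 h (adjusted p = 0.00105; within-form -0.64) and rose by 0.87 ± 0.11 from 1 to 10 h (adjusted p = 1.14e-04; within-form 0.88). RHOV fell by 0.63 ± 0.15 at 10 h against 0 h (adjusted p = 0.0152) and by 0.73 ± 0.15 against 1 h (adjusted p = 0.00363; within-form -0.55). Near JAG2, the promoter of the noncoding gene LINC02298 rose by 0.83 ± 0.15 at 1 h in WT (adjusted p = 0.00168; within-form 0.61) and by 0.79 ± 0.15 in the RAD21 line (adjusted p = 0.00199). NUDT14 had an interaction of 0.89 ± 0.26 (adjusted p = 0.0244).

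Near HES4, AGRN rose by 1.08 ± 0.16 at 1 h in WT (adjusted p = 5.93e-04; within-form 0.78), RNF223 fell by 0.57 ± 0.12 (adjusted p = 0.00421; within-form -0.50) and then rose by 0.54 ± 0.12 from 1 to 10 h (adjusted p = 0.00474; within-form 0.61), and PLEKHN1 rose by 0.73 ± 0.14 in the RAD21 line (adjusted p = 0.00261). The shared KLHL17 and NOC2L promoter rose by 0.52 ± 0.16 at 10 h against 0 h (adjusted p = 0.0415), a call kept in 2 of the 10 fits that left out 1 list. Near NOTCH1, the shared promoter of ENTR1 and PMPCA rose by 0.81 ± 0.15 in the RAD21 line (adjusted p = 0.00170), with an interaction of 1.12 ± 0.21 (adjusted p = 0.00257), and SNAPC4 had an interaction of -1.11 ± 0.21 (adjusted p = 0.00267). SEC16A rose by 1.00 ± 0.17 from 1 to 10 h (adjusted p = 8.26e-04; within-form 0.80) and had an interaction of 0.80 ± 0.24 (adjusted p = 0.0275). Near NOTCH3, SYDE1 fell by 0.80 ± 0.17 from 1 to 10 h (adjusted p = 0.00350; within-form -0.63), and near HES1 the promoter of LINC02028 fell by 0.84 ± 0.17 at 10 h against 0 h (adjusted p = 0.00728) and by 1.11 ± 0.17 against 1 h (adjusted p = 5.64e-04; within-form -1.24).

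A list of 42 other Notch pathway genes was read for comparison; 34 had H3K27ac at a promoter and 30 of these could be tested. At 1 h in WT 3 rose and 7 fell, which is 10.0% and 23.3% against 14.3% and 14.8% of all regions, with a median change of 0.011. The genes that fell included NCSTN, by 1.06 ± 0.14 (adjusted p = 2.87e-04), and PSENEN, by 0.76 ± 0.20 (adjusted p = 0.0124), which encode subunits of gamma-secretase, the enzyme that cuts the receptor. Both rose again from 1 to 10 h, by 0.93 and 1.04. APH1A and APH1B, which also encode subunits, gave no call at 1 h, and both fell from 1 to 10 h. The genes that rose at 1 h were DTX2, a ubiquitin ligase, and SPEN and SNW1, a corepressor and a coactivator of RBPJ target genes, by 0.69 ± 0.16, 0.72 ± 0.20 and 0.48 ± 0.14.

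In the RAD21 line 8 of the 30 rose and 2 fell at 1 h, which is 26.7% and 6.67% against 14.4% and 13.4% of all regions, with a median of 0.152. MAML1, the coactivator that joins RBPJ and the cut receptor, rose by 0.93 ± 0.12 (adjusted p = 1.49e-04) and POFUT1, which adds fucose to Notch, by 0.64 ± 0.14 (adjusted p = 0.00425). The interaction was called at 9 of the 30 (30.0% against 22.7%), positive at 7 and negative at 2. It was 1.06 ± 0.17 at MAML1 (adjusted p = 8.58e-04) and 1.03 ± 0.20 at NCSTN (adjusted p = 0.00248). At 10 h against 0 h 0 rose and 2, APH1B and HES6, fell (6.67%), against 9.70% and 8.56% of all regions. For H3K4me1, limma called 0 of 37 in either comparison, with a smallest adjusted p of 0.0831.

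The promoters whose 10 H3K27ac rank scores followed those of JAG2 most closely, among 12088, were TMEM51 (Pearson r = 0.984), PAXX (0.980), CHCHD10 (0.977), ATXN2L (0.975) and the shared promoter of MRPS2 and PIERCE1 (0.972). The points are 10 lists in 5 groups of 2, so the correlations describe a shared pattern over the groups and carry no test.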

How the data were processed

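H3K27ac and H3K4me1 were measured by ChIP-seq in HCT116 cells. According to the methods and the submitters' processing notes, the authors trimmed paired-end reads (Trim Galore 0.6.6), aligned them (Bowtie2 2.3.2; builds GRCh37.p13 and hg19), removed duplicate and blacklisted reads and called peaks with MACS2 2.2.7.1 against input, narrow for H3K27ac and broad for H3K4me1, in each library alone. The 16 deposited lists give a fold enrichment (ratio) per peak. The authors' peak caller also wrote the p-value and q-value of each peak as −log10, with lowest −log10 q of 1.30 for H3K27ac and 1.01 for H3K4me1. The deposited narrow lists add the summit offset in bp, used as a position and not as a score. DESeq2 1.36.0 and deepTools 3.2.1 are named in the processing notes and their output was not used here; 10 input libraries were not analysed here. The deposited lists hold no read counts, so no counting interval was set; the study's own library statistics were not used here.

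Groups came from the labels. Overlapping peaks (at least 1 bp) were merged per mark, and a region took the highest −log10 p of a list. Ranks among regions called in all lists were turned into normal scores and fitted with limma 3.58.1 in R 4.3.3 (1 fit per mark over its groups, eBayes with trend, two-sided, Benjamini-Hochberg over all regions, adjusted p under 0.05). Groups of 2 against 2 cannot reach that threshold in an exact permutation test, so p-values rest on the spread that the fit shares over groups. The study describes 2 biological replicates per condition; the labels do not say whether these were separate cultures. Percentiles are of all peaks of a list by −log10 p and move with its length. Gains and losses were counted against 0 h, and 10 h was not set against 1 h by presence. Tested on simulated data with 200 regions changed by 1 unit, the fit recovered 86.5% at 1 h in WT, 82% at 10 h against 0 h, 86% at 10 h against 1 h, 87% in the RAD21 line and 66% in the interaction of 18757 H3K27ac regions, with false calls at 7.49%, 9.39%, 8.51%, 4.4% and 11.4%, above the nominal 5% in 4 of 5. For 60476 H3K4me1 regions it recovered 46% at 1 h and 51% at 10 h, with 8% and 8.93% false.

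Promoters and gene positions came from GENCODE 44 lifted to GRCh37, where the authors used an Ensembl annotation of that build. Peak names inside some lists carry another replicate number than the labels, which were followed; the RAD21 lists are also named as a knockdown. Regions were named by a fixed rule: every promoter region of the 9 genes, the 10 regions with the smallest p per rank contrast, the 5 highest ranked distal gains and losses per comparison, the strongest distal region per gene, the same beyond the 3′ end of JAG2, and the 5 promoters most like that of JAG2. H3K4me1 promoter regions were named in part and otherwise given as counts. The members, the gene lists and the rule were chosen with earlier results of these data known. Alternatives were ranks by fold, no filter on presence, a −log10 q of at least 5, the form of the peak names as a term, the replicate number as a block, each list left out in turn, peaks covering 50% of a region, a 50 kb window and, chosen after seeing the data, absence from WT 1 h replicate 2. Results for some genes are not reported here.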

Additional observations from a re-analysis of the deposited data

Results flagged for a closer look

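At 14 regions the 1 h change in H3K27ac rank score differed between the RAD21 line and WT by the interaction test (limma, adjusted p under 0.05). Values are the RAD21 line's change less the WT change. Among regions tied to the Notch genes themselves, the difference was 0.50 at the NOTCH1 promoter, 1.59 at the NOTCH2 intronic region, -1.84 at the DLL1 intronic region and -0.95 at the JAG2 distal region in BRF1. At promoters of other genes it was 1.12 at ENTR1 and PMPCA, 0.80 at SEC16A and -1.11 at SNAPC4 near NOTCH1, 0.99 at VPS18, 0.50 at ENSG00000251161 and -1.19 at CHAC1 near DLL4, 0.89 at NUDT14 near JAG2, and 0.64 at RNF223 near HES4. Beyond the 3′ end of JAG2 it was -1.92 at AHNAK2 and -1.28 at CLBA1. Across all regions the interaction was called at 22.7%, so differences of this kind were common in the table. The WT 0 h lists and the RAD21 0 h lists differ in form. With the form as a term the DLL1 intronic difference was -1.66 (adjusted p = 0.0627) and no longer called, and the others kept their direction and call. Ranked by the authors' fold in place of the p-value, the interaction was called at 0 of all 18757 regions, so these differences hold for ranks by p-value. Counts with 1 list left out are given below. Groups of 2 lists are too small to look for single outlying lists.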

How the results depend on the processing

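With 2 lists per group, peak lists in place of reads and 3 shorter H3K27ac lists, the counts depended on the processing. The causes were not tested. Ranked by the authors' fold, the called H3K27ac member regions went from 20 to 0 at 1 h in WT, from 7 to 11 at 10 h against 0 h, from 21 to 3 at 10 h against 1 h, from 18 to 0 in the RAD21 line and from 12 to 0 in the interaction (10, 26, 19, 10 and 9 at an unadjusted p under 0.05), and the single H3K4me1 calls at 1 h and 10 h went to 0 and 0. With no filter on presence the counts were 13, 23 and 33 for the 3 WT comparisons, and 0 and 2 for H3K4me1. With the form of the peak names as a term, the 10 h against 0 h count was 2. A −log10 q of at least 5 left 0 and 0 H3K4me1 calls.

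Replicate numbers did not pair the lists: deviations from the group means correlated between -0.050 and 0.045 for H3K27ac and between 0.001 and 0.007 for H3K4me1. With the replicate block the counts were 18, 6, 20, 18 and 11 for H3K27ac and 2 and 1 for H3K4me1.

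Leaving out 1 list at a time gave 11 to 23 calls at 1 h in WT, 1 to 18 at 10 h against 0 h, 12 to 27 at 10 h against 1 h, 9 to 25 in the RAD21 line, 5 to 19 in the interaction, and 0 to 0 and 0 to 2 for H3K4me1. The 10 h against 0 h count was 18 without either WT 1 h list and 1 without WT 10 h replicate 1. A lone list was assumed to vary like the other groups.

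For presence at a −log10 q of at least 5, H3K27ac gains and losses were 0 and 0 at 1 h, 11 and 3 at 10 h and 3 and 1 in the RAD21 line, and H3K4me1 gains were 0 at 1 h and 0 at 10 h, with 0 losses at 10 h. Where peaks had to cover 50% of a region, H3K27ac gains and losses at 1 h were 6 and 0, losses at 10 h 3, and H3K4me1 gains and losses at 1 h 10 and 3. The 50 kb window gave 1 H3K27ac gain at 1 h, 22 gains and 3 losses at 10 h, 5 and 4 in the RAD21 line, and 0 and 4 H3K4me1 gains at 1 and 10 h. Leaving out 1 list gave 4 to 40 H3K27ac gains and 5 to 13 losses at 1 h, 41 to 64 and 6 to 14 at 10 h, and 12 to 26 and 11 to 46 in the RAD21 line. For H3K4me1 it gave 5 to 20 gains and 0 to 9 losses at 1 h and 8 to 14 and 4 to 14 at 10 h. The 40 gains were those without WT 1 h replicate 1, which left the longer list alone. Gains at 10 h also absent from WT 1 h replicate 2, a setting chosen after seeing the data, numbered 26.

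Among single regions, 6 values that were called in the main fit or in the alternative turned direction. Ranked by fold, PLEKHN1 gave -0.227 at 1 h in WT, and from 1 to 10 h AGRN gave 0.245, LINC02298 0.178 and the JAG2 promoter 0.027. With the form of the peak names as a term, the KLHL17 and NOC2L promoter gave -0.110 and AHNAK2 -0.044 at 10 h against 0 h. Over all single regions, 131 of 137 values were unchanged with the block and 122 of 124 at the stricter q. The numbers were 91 of 117 with the form as a term, 50 of 137 by fold and 1064 of 1290 with a list left out. Unchanged means the same direction and side of the threshold, or uncalled in both fits with a change of sign by less than the SE. Uncalled values that changed sign by more numbered 4 by fold, 6 with the form as a term and 7 with a list left out.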
